A study of Homo sapiens with 13 samples.

Results

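Transcripts of 10 collagen-modifying genes were followed in the 13 RNA-seq libraries of AC16 cells: the prolyl 4-hydroxylase alpha subunits P4HA1, P4HA2 and P4HA3, the lysyl hydroxylases PLOD1, PLOD2 and PLOD3, the procollagen chaperone SERPINH1, the procollagen C-proteinase enhancer PCOLCE, and the lysyl oxidases LOX and LOXL2. They were chosen by name, as genes that hydroxylate, fold, process or crosslink collagen, and make up 10 of the 63241 gene IDs in each table. They are called enzymes below for short, although SERPINH1 encodes a chaperone and PCOLCE an enhancer of a proteinase. All 10 passed the expression filter, which kept 16756 genes, and each is set beside COL1A1, the gene of the collagen I alpha 1 chain, in the same libraries.

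AC16 is a human cell line derived from ventricular tissue by fusion of heart muscle cells with transformed fibroblasts. The groups were preconditioning+FCCP (3 libraries), preconditioning (4 libraries), FCCP (3 libraries) and control (3 libraries). FCCP uncouples mitochondria by carrying protons across their inner membrane. Preconditioning was done by light through mOpto, an optogenetic tool for mitochondria, per the title and design text, and was combined with FCCP in 1 group. All 13 libraries are labelled wildtype, and whether FCCP and control cells held mOpto or were lit is not stated, nor is the dose or duration of either treatment. The labels do not tie replicates to separate cultures, so the p-values rest on a spread between libraries that may be technical.

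Libraries held 14970803 to 20636229 gene counts. The labels call the cells myocytes, but of 10 cardiomyocyte markers only ACTN2, NPPB and TTN passed the filter, TNNT2 had 0 counts in all libraries, and the markers summed to between 2.71 and 12.5 CPM (a gene's count scaled to a common library size). All 10 fibroblast markers passed, with summed levels of 616 to 734 CPM in preconditioning+FCCP, 2312 to 2810 CPM in preconditioning, 1620 to 2934 CPM in FCCP and 1091 to 2683 CPM in control. Libraries also differed in how many reads aligned to several places, with the largest gap between 5.22% and 7.13%: control 1 and 2, FCCP 1 to 3 and preconditioning+FCCP 3 lay above it (the higher-share set), and control 3, preconditioning 1 to 4 and preconditioning+FCCP 1 and 2 below (the lower-share set). A fit with the library set as a term can therefore tell set from preconditioning only through control 3 and preconditioning+FCCP 3. Control 3 stood apart from control 1 and 2 for several of the genes below. The changes of P4HA1, PLOD2 and PCOLCE in preconditioning against control are given with and without it. In bulk libraries, fewer cells of a type and less RNA per cell cannot be told apart.

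A procollagen chain is modified while it enters the endoplasmic reticulum. Prolyl 4-hydroxylases, built of an alpha subunit from a P4HA gene and the P4HB protein, hydroxylate prolines that hold the triple helix together, and lysyl hydroxylases (PLOD) hydroxylate lysines that later carry sugars and crosslinks. Both enzyme families need oxygen, iron, 2-oxoglutarate and ascorbate, and HSP47, the product of SERPINH1, binds the folded helix until it leaves for the Golgi. Outside the cell PCOLCE speeds the removal of the C-propeptide, and LOX and LOXL2 oxidise lysines so that fibrils become crosslinked.

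Several of these genes, P4HA1, PLOD2 and LOX among them, are known targets of hypoxia-inducible factor 1 (HIF-1), whose DNA element has the core ACGTG or GCGTG. RefSeq promoters (GRCh38.p14, a later build than the hg19 of the deposited counts) were at hand for 8 of the 10 genes, in 11 entries of 300 bases (250 before the start and 50 after it). The core was searched on both strands, so it also reads CACGT or CACGC, and 6 of the 8 genes had at least 1 copy in an entry, where 52.4% of the 27305 genes in the table had one in any entry. The stretches before the start that hold the core in PLOD2, LOX and P4HA1 are shown because these genes are known HIF-1 targets with the core in their windows. Capitals mark the core, and 20 bases are given on each side of the outermost copies.
PLOD2, chr3:146161306-146161417, minus strand, positions -233 to -122 from the start: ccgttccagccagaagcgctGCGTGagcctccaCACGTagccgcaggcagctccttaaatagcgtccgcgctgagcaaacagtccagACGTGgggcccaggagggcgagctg
LOX, first entry, chr5:122078277-122078464, minus strand, positions -205 to -18: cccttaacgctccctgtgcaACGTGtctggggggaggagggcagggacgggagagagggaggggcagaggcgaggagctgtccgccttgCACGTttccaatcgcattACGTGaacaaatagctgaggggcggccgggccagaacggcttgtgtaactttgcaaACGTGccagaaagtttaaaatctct
P4HA1, chr10:73096928-73096972, minus strand, positions -106 to -62: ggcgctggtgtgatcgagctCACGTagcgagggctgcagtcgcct

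PLOD2 held 3 copies of the core and the first LOX entry 4, where 10.1% of all promoters in the table held at least 3 and 4.40% at least 4. The other 2 LOX entries held 2 copies each, which 23.1% of promoters reached, as did PLOD1 and PCOLCE. These 2 LOX entries overlap, and their 2 copies are the same bases. The SERPINH1 entries held 1 and 3 copies, and P4HA1 held 1, where 48.4% of the 35116 promoters held at least 1. The SERPINH1 entries overlap too, and the copy of the first is also among the 3 of the second. P4HA2 and PLOD3 held none in their windows. A match describes the letters only, and says nothing of whether a factor binds.

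Per length (CPM per kb of exon), COL1A1 had the highest mean of the 11 transcripts in every group, and P4HA3 the lowest. In control libraries COL1A1 averaged 407 ± 120 CPM per kb (SD, n = 3), followed by SERPINH1 at 142 ± 8.19, PCOLCE at 118 ± 72.6, LOXL2 at 107 ± 26.4, PLOD2 at 87.8 ± 34.5, P4HA1 at 66.5 ± 34.9, PLOD1 at 62.9 ± 0.647, LOX at 56.7 ± 8.83, PLOD3 at 37.3 ± 9.03, P4HA2 at 18.9 ± 0.71 and P4HA3 at 0.994 ± 0.531 CPM per kb. Each neighbour from SERPINH1 to PLOD3 in that order overlapped the next. COL1A1 lay above SERPINH1, PLOD3 above P4HA2, and P4HA2 above P4HA3 without overlap. In preconditioning+FCCP the order changed: COL1A1 averaged 61.9 ± 9.45 CPM per kb (SD, n = 3) and overlapped PLOD1 (51.1 ± 6.49), which was followed by LOXL2 (48.6 ± 6.34), SERPINH1 (43.1 ± 7.45) and PLOD3 (40.2 ± 2.43 CPM per kb), each overlapping the next.

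Of the 10 genes, 9 had their lowest mean level in preconditioning+FCCP, PLOD3 being the exception. For PLOD1, PLOD2, LOXL2 and SERPINH1 each preconditioning+FCCP library lay below each of the 10 other libraries. How many of all genes met either of these conditions was not counted. Set against FCCP libraries alone, 6 of the 10 genes lay wholly lower in preconditioning+FCCP, where 21.3% of all genes did. Set against preconditioning libraries alone, 8 of the 10 did, where 26.2% of all genes did.

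**Figure D1:**
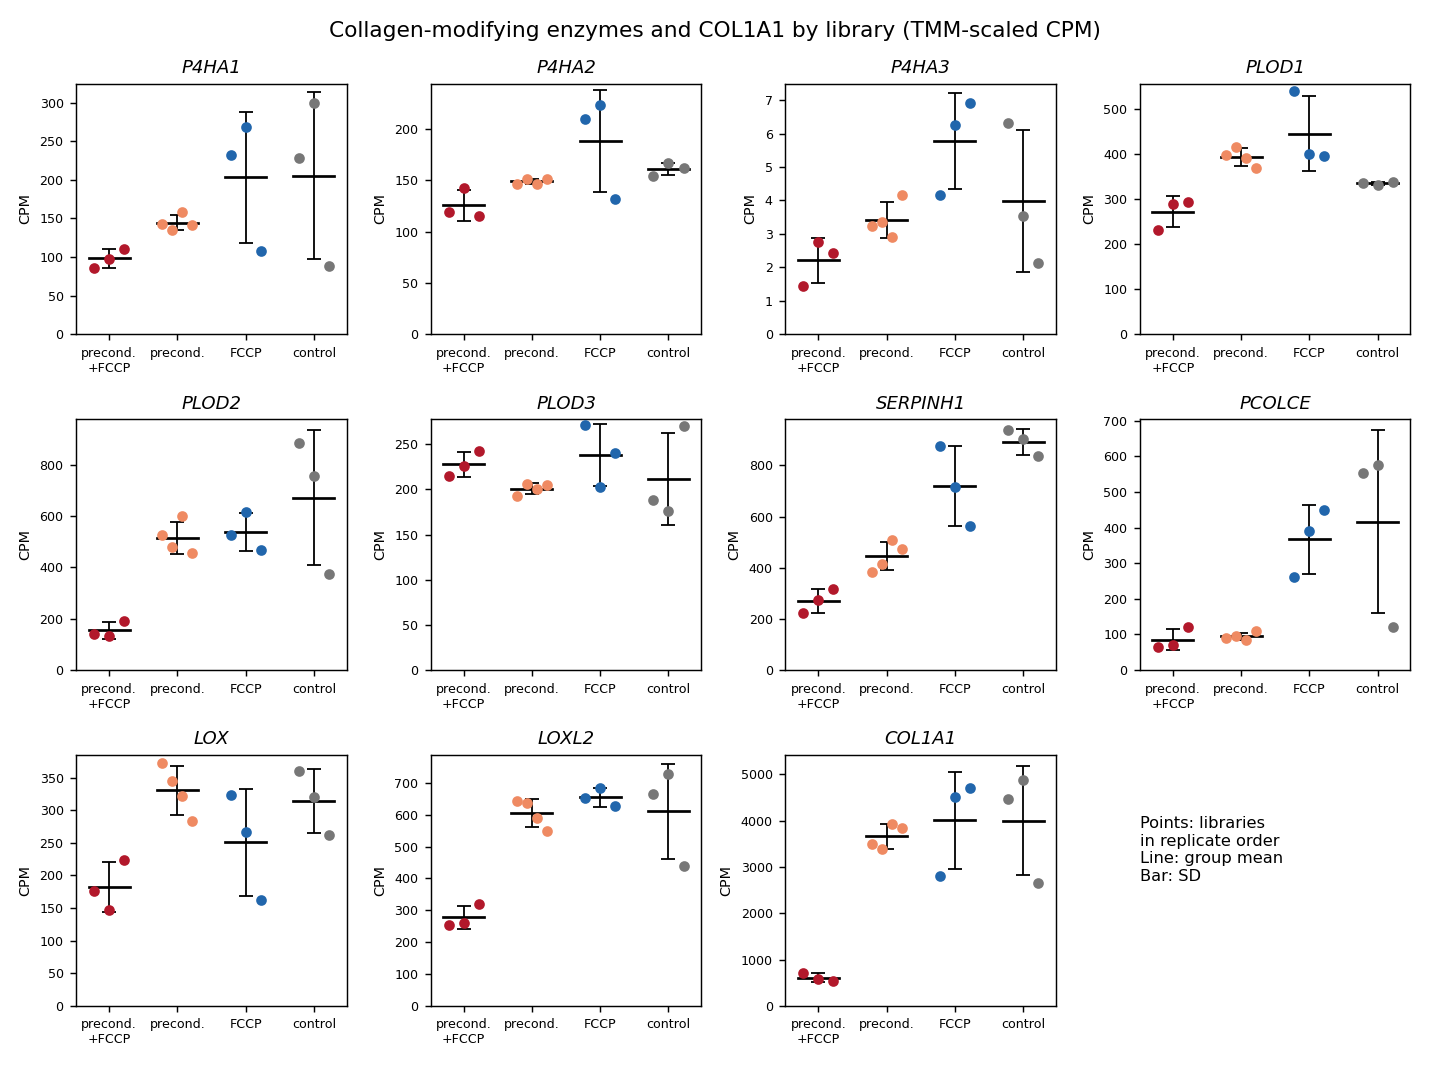
Level of each gene (CPM after TMM scaling, vertical axis from 0) in the 13 libraries, by group; points are libraries, lines group means and bars SD. PLOD2, LOXL2, SERPINH1 and COL1A1 were low in all 3 preconditioning+FCCP libraries, PLOD3 was not, and control 3 lay far below control 1 and 2 for P4HA1, PLOD2 and PCOLCE.

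Preconditioned cells given FCCP were first set against cells given FCCP without preconditioning. In this comparison 8 of the 10 genes fell and none rose, where 17.7% of all genes tested were lower and 17.9% higher (edgeR's quasi-likelihood test with Benjamini-Hochberg adjustment over 16756 genes, called at an adjusted p under 0.05; all calls below use it unless another is named). The median log2 change of the 10 genes was -1.14, against 0.0087 over all genes tested. PLOD3 and LOX were not called. COL1A1 fell by more than any of them, with a log2 change of -2.72 ± 0.28 (SE; adjusted p = 0.000169).

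The same preconditioning+FCCP libraries were then set against preconditioning alone, so both comparisons share them. Here 5 of the 10 genes fell (PLOD1, PLOD2, LOX, LOXL2 and SERPINH1) and none rose, where 19.2% of all genes were lower and 20.2% higher. The median log2 change of the 10 was -0.59, against 0.02 over all genes. With the library set as a term, within the lower-share set, and when control 3, FCCP 1 and preconditioning+FCCP 3 were omitted, P4HA1 and PCOLCE were lower as well (7 of 10), where 20.3%, 25.3% and 24.9% of all genes were lower. The omitted libraries were those that differed most from the others of their groups, so leaving them out narrows the spread behind the calls. Preconditioning alone against control lowered 2 of the 10, SERPINH1 and PCOLCE, and raised none, where 13.0% of all genes were lower and 10.5% higher. Neither share of the 10 genes in that last comparison, 2 lower and 0 higher, stood far from the background.

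FCCP without preconditioning changed none of the 10 against control, where 3.52% of all genes were called in either direction. PLOD1 alone had an unadjusted p under 0.05 in that comparison, DESeq2 and limma-voom also called 0 of the 10, and the median log2 change was 0.04, against -0.04 over all genes. The interaction, meaning the effect of FCCP on preconditioned cells minus its effect on cells without preconditioning, was called lower for 3 of the 10, PLOD1, PLOD2 and LOXL2, and higher for none, where 9.60% of all genes were lower and 9.38% higher. FCCP against control, preconditioning against control and the interaction all use the control libraries. The interaction draws on the libraries of every group, so none of these results is independent of the others. When control 3, FCCP 1 and preconditioning+FCCP 3 were omitted, 4 of the 10 were lower in FCCP than in control (PLOD2, LOX, SERPINH1 and PCOLCE), with log2 changes of -0.63, -0.70, -0.56 and -0.46, where 10.8% of all genes tested in that fit were lower. As these libraries differed most from the others of their groups, these 4 calls rest on a spread narrowed by the omission.

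**Figure D2:**
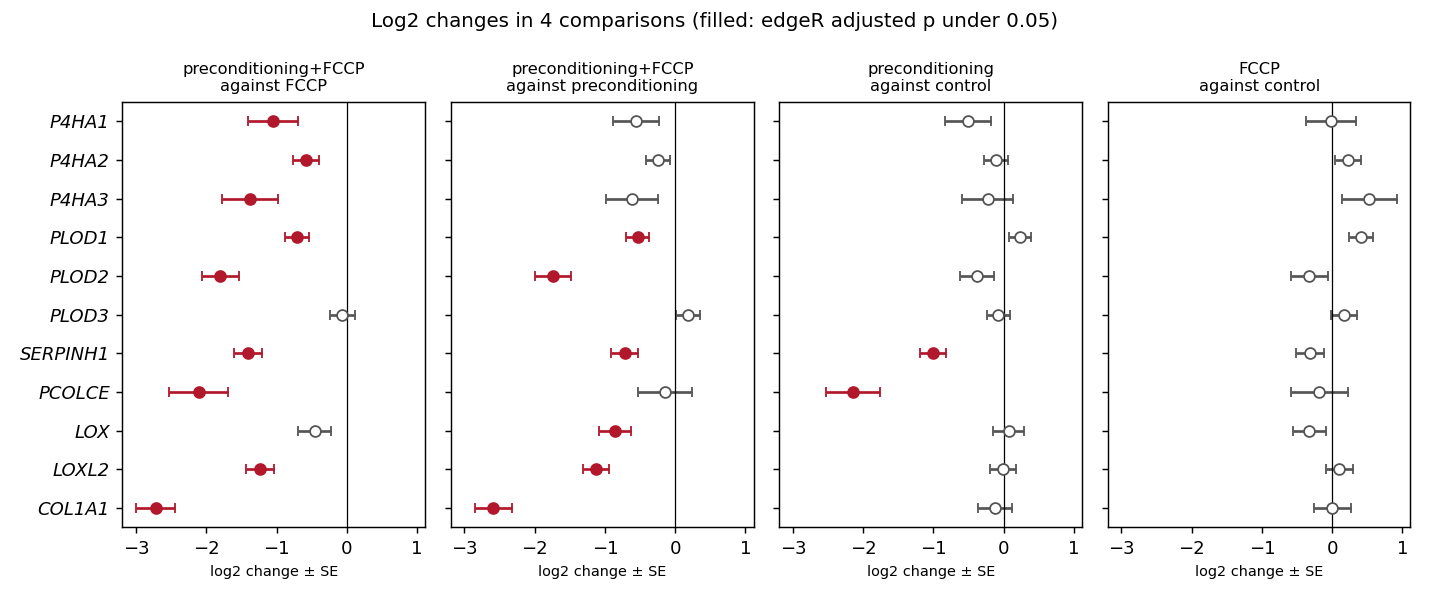
Log2 change (horizontal axis, bars ± SE) of the 10 genes and COL1A1 in 4 comparisons, with filled points where edgeR's adjusted p was under 0.05. In preconditioning+FCCP against FCCP 8 of the 10 genes were lower, in FCCP against control none was called, and PLOD3 stayed near 0 throughout.

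The prolyl 4-hydroxylase alpha subunits were all lower in preconditioning+FCCP than in FCCP, with calls that were lost when single libraries were left out. P4HA1, the main catalytic subunit in most cells, had 85.4, 97.8 and 111 CPM in preconditioning+FCCP, 143, 135, 159 and 141 CPM in preconditioning, 233, 269 and 108 CPM in FCCP and 229, 299.9 and 88.0 CPM in control. FCCP 3 and control 3 lay as low as the preconditioning+FCCP libraries, so those groups overlapped, while the 4 preconditioning libraries stood between. P4HA1 was lower in preconditioning+FCCP than in FCCP by a log2 change of -1.05 ± 0.36 (adjusted p = 0.0311), and the change against preconditioning alone was -0.56 ± 0.33 (adjusted p = 0.196). All 3 preconditioning+FCCP libraries lay below the 4 preconditioning libraries, and that change was called in 5 of 17 alternatives, among them the library set as a term (-0.85, adjusted p = 0.0306) and the lower-share set (-0.66, adjusted p = 0.000643). The call against FCCP was lost with the library set as a term (-0.41, adjusted p = 0.478), with limma-voom, with the replicate block, and when FCCP 1 (-0.94), FCCP 2 (-0.83), preconditioning+FCCP 1 (-0.97) or preconditioning+FCCP 2 (-1.06) was left out.

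In preconditioning alone the P4HA1 value depended on control 3. Its log2 change against control was -0.51 ± 0.33 (adjusted p = 0.271), -0.88 without control 3 (adjusted p = 0.0170), and 0.72 within the lower-share set (adjusted p = 0.0094), where control 3 is the sole control library and was assumed to vary like the others. The direction therefore turned with the control libraries used.

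P4HA2, which encodes another alpha subunit, had 119, 142 and 115 CPM in preconditioning+FCCP, 146, 151, 147 and 151 CPM in preconditioning, 209.6, 224 and 132 CPM in FCCP and 155, 167 and 161 CPM in control. Its libraries agreed closely within preconditioning and within control, and FCCP 3 fell inside the preconditioning+FCCP range. P4HA2 was lower in preconditioning+FCCP than in FCCP (log2 change -0.59 ± 0.19, adjusted p = 0.0229). The call was lost in 9 of 16 alternatives, among them FCCP 1 (-0.50), FCCP 2 (-0.47), preconditioning+FCCP 1 (-0.56) or preconditioning+FCCP 3 (-0.55) left out. Against preconditioning it had a log2 change of -0.25 ± 0.17 (adjusted p = 0.275), although no preconditioning+FCCP library reached the lowest preconditioning library.

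P4HA3, the third alpha subunit gene, was scarce, with 135 to 255 reads per group. It had 1.45, 2.75 and 2.43 CPM in preconditioning+FCCP, 3.22, 3.35, 2.90 and 4.16 CPM in preconditioning, 4.16, 6.25 and 6.90 CPM in FCCP and 6.31, 3.52 and 2.13 CPM in control. The preconditioning+FCCP libraries lay below all FCCP libraries, and the control libraries spanned nearly the whole range. P4HA3 was lower in preconditioning+FCCP than in FCCP (log2 change -1.38 ± 0.40, adjusted p = 0.0144), a call lost without FCCP 3 (-1.25), without preconditioning+FCCP 1 (-1.15) and with the library set as a term (-0.90). P4HB, the beta subunit and a protein disulfide isomerase, rose in preconditioning against control (log2 change 0.93 ± 0.19, adjusted p = 0.00444), with 781 ± 28.0 CPM in preconditioning (SD, n = 4) and 409 ± 74.1 CPM in control (n = 3).

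Within the lysyl hydroxylases the 3 genes parted. PLOD2, which hydroxylates lysines of the telopeptides at the ends of collagen chains, fell most, PLOD1, which acts on the helix, fell less, and PLOD3, which also attaches sugars to hydroxylysine, was not called in any comparison.

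PLOD2 had 138, 133 and 191 CPM in preconditioning+FCCP, 525, 479, 599 and 454 CPM in preconditioning, 527, 615 and 468 CPM in FCCP and 883, 755 and 375 CPM in control. The 3 preconditioning+FCCP libraries stood well below all others, and control 3 was the lowest of the rest. The log2 change of preconditioning+FCCP was -1.80 ± 0.27 against FCCP (adjusted p = 0.000374) and -1.74 ± 0.26 against preconditioning (adjusted p = 0.000156). The second call held in all 17 alternatives. The interaction was -1.41 ± 0.36 (adjusted p = 0.0141), a call that held in all 21 alternatives.

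Preconditioning alone gave a PLOD2 log2 change of -0.38 ± 0.24 against control (adjusted p = 0.263). Without control 3 it was -0.68 (adjusted p = 0.0134), and within the lower-share set, against control 3 alone, 0.46 (adjusted p = 0.0922). FCCP without preconditioning gave -0.32 ± 0.26 against control (adjusted p = 0.522).

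PLOD1 had 232, 289 and 294 CPM in preconditioning+FCCP, 398, 416, 389.7 and 368 CPM in preconditioning, 540.4, 399.7 and 395 CPM in FCCP and 335, 331 and 337 CPM in control. The control libraries were nearly equal, the preconditioning and FCCP libraries all lay above them, and the preconditioning+FCCP libraries all lay below. PLOD1 was lower in preconditioning+FCCP than in FCCP (log2 change -0.71 ± 0.17, adjusted p = 0.0057) and than in preconditioning (-0.53 ± 0.16, adjusted p = 0.017), the last call being lost without preconditioning+FCCP 1 (-0.45, adjusted p = 0.0726) and without the expression filter (-0.54, adjusted p = 0.0627). FCCP alone gave 0.41 ± 0.17 against control (adjusted p = 0.191) and preconditioning alone 0.23 ± 0.16 (adjusted p = 0.307). The interaction was -0.94 ± 0.24 (adjusted p = 0.0127) and its call held in all 21 alternatives.

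PLOD3 had 215, 226 and 242 CPM in preconditioning+FCCP, 192, 206, 200.5 and 205 CPM in preconditioning, 271, 203 and 240.0 CPM in FCCP and 189, 176 and 270.3 CPM in control. The preconditioning+FCCP libraries lay above all preconditioning libraries and inside the range of both other groups. The log2 change was -0.06 ± 0.18 against FCCP (95% interval -0.42 to 0.29) and 0.18 ± 0.17 against preconditioning (-0.15 to 0.51), so a fall of the size seen for PLOD2 lay outside both intervals. The sign against FCCP turned with library totals alone (0.12) and within the higher-share set (0.02).

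The makeup of the lysyl hydroxylase transcripts shifted accordingly. Per length, PLOD2 made up 18.2%, 15.6% and 20.3% of the summed PLOD transcripts in preconditioning+FCCP, 38.7%, 35.4%, 41.9% and 36.0% in preconditioning, 31.6%, 42.0% and 34.4% in FCCP and 54.5%, 51.5% and 30.7% in control. No preconditioning+FCCP library overlapped another group. PLOD3 made up 36.2 ± 1.71% in preconditioning+FCCP (SD, n = 3), 20.1 ± 1.41% in preconditioning (n = 4), 21.5 ± 2.58% in FCCP (n = 3) and 20.5 ± 7.99% in control (n = 3). These shares restate the counts above and were not tested on their own.

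**Figure D3:**
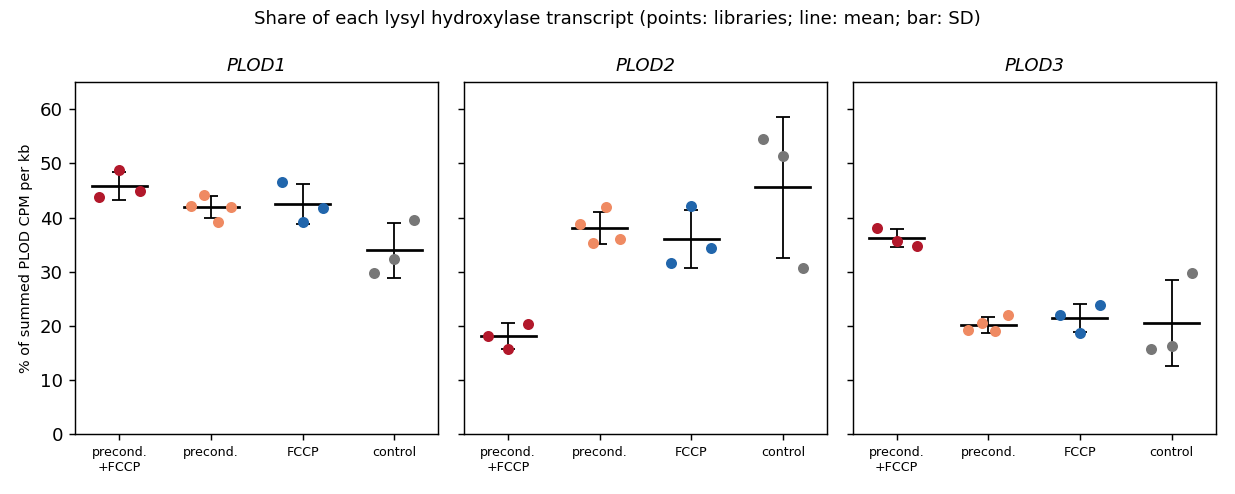
Share of PLOD1, PLOD2 and PLOD3 in their summed level per length (vertical axis, % of summed CPM per kb) in each library; lines are group means and bars SD. The PLOD2 share was 15.6% to 20.3% in preconditioning+FCCP libraries and at least 30.7% in all others, and the PLOD3 share moved the other way.

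SERPINH1 was lowest in preconditioning+FCCP, and lower in preconditioning than in either group without it. It encodes HSP47, a chaperone of the endoplasmic reticulum that binds procollagen. SERPINH1 had 223, 273 and 316 CPM in preconditioning+FCCP, 384, 416, 507 and 475 CPM in preconditioning, 876, 715 and 563 CPM in FCCP and 938, 902 and 837 CPM in control. No preconditioned library reached the lowest library without preconditioning, and control 3 lay close to control 1 and 2 here.

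In preconditioning alone SERPINH1 fell by 1.00 ± 0.19 on the log2 scale against control (adjusted p = 0.00305), and the call held in all 17 alternatives, including the fit within the lower-share set (-0.90, adjusted p = 0.00572). Preconditioning+FCCP lay below FCCP by -1.41 ± 0.20 (adjusted p = 0.000324) and below preconditioning by -0.72 ± 0.19 (adjusted p = 0.00781). FCCP without preconditioning gave -0.31 ± 0.20 against control (adjusted p = 0.397). The interaction was -0.40 ± 0.28 (adjusted p = 0.316) and was not called.

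PCOLCE, the secreted enhancer of the procollagen C-proteinase BMP1, had the largest change of the 10 genes between preconditioning and control. It had 64.8, 70.4 and 119.9 CPM in preconditioning+FCCP, 90.9, 94.9, 83.7 and 108 CPM in preconditioning, 261, 389.7 and 450.3 CPM in FCCP and 552, 576 and 120.0 CPM in control. All 7 libraries of the lower-share set, control 3 among them, had 64.8 to 120.0 CPM, and the sole library of the higher-share set in that range was preconditioning+FCCP 3.

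PCOLCE was lower in preconditioning than in control by -2.14 ± 0.39 (adjusted p = 0.00274), and by -2.59 without control 3. Within the lower-share set the change was -0.34 (adjusted p = 0.142), and with the library set as a term -0.85 (adjusted p = 0.138), so the call was lost in both. Preconditioning+FCCP lay below FCCP by -2.11 ± 0.43 (adjusted p = 0.00195) and by -1.11 with the library set as a term (adjusted p = 0.0305). Against preconditioning it was -0.15 ± 0.38 (adjusted p = 0.782), but -0.48 within the lower-share set (adjusted p = 0.00646). The antisense gene PCOLCE-AS1 shares 16.6% of the exon bases of PCOLCE, whether reads were counted by strand is not given in the sources, and PCOLCE-AS1 itself had at most 0.904 CPM.

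Both lysyl oxidases were lower in preconditioning+FCCP than in preconditioning. LOX had 176, 148 and 224 CPM in preconditioning+FCCP, 373, 344, 322 and 284 CPM in preconditioning, 324, 266 and 162 CPM in FCCP and 360.4, 319.6 and 263 CPM in control. All preconditioning+FCCP libraries lay below all preconditioning and control libraries, and FCCP 3 fell among them. The log2 change was -0.86 ± 0.23 against preconditioning (adjusted p = 0.00713), a call that held in all 17 alternatives, and -0.46 ± 0.24 against FCCP (adjusted p = 0.139), which became -0.72 without FCCP 3 (adjusted p = 0.0322), -0.20 with the library set as a term (adjusted p = 0.597) and -0.18 within the higher-share set (adjusted p = 0.789).

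LOXL2 had 252, 261 and 319 CPM in preconditioning+FCCP, 642, 637, 588 and 550.3 CPM in preconditioning, 653, 684 and 626 CPM in FCCP and 664, 726 and 440.1 CPM in control. The 3 preconditioning+FCCP libraries were the lowest of the 13, and the other groups overlapped. The log2 change was -1.24 ± 0.20 against FCCP (adjusted p = 0.00054) and -1.12 ± 0.19 against preconditioning (adjusted p = 0.000352). The interaction was -1.23 ± 0.27 (adjusted p = 0.00647) and its call held in all 21 alternatives. Preconditioning alone gave -0.01 ± 0.18 against control (adjusted p = 0.968) and FCCP alone 0.10 ± 0.19 (adjusted p = 0.811).

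The fits within the 2 library sets bear on the comparison of preconditioning+FCCP with FCCP. Preconditioning+FCCP 3 is the sole library of its group in the higher-share set and was assumed there to vary like the others, and that fit called 3 of all genes and none of the 10. Its log2 changes stayed negative for 9 of the 10, among them PLOD2 (-1.49), PCOLCE (-1.61), SERPINH1 (-1.19) and LOXL2 (-1.04). Without preconditioning+FCCP 1, 5 of the 10 were called in place of 8, the calls of P4HA1, P4HA2 and P4HA3 being lost.

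COL1A1 fell further than the enzymes, so relative to it the enzymes rose. COL1A1 had 713, 575 and 536 CPM in preconditioning+FCCP, 3497, 3384, 3940.1 and 3833 CPM in preconditioning, 2803, 4515 and 4704 CPM in FCCP and 4463, 4879 and 2656 CPM in control. The preconditioning+FCCP libraries stood far below the 10 others, and FCCP 1 and control 3 were the lowest of those. Against control, COL1A1 changed by -0.13 ± 0.24 in preconditioning (adjusted p = 0.737) and by 0.0028 ± 0.26 in FCCP (adjusted p = 0.996).

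The log2 change of each enzyme minus that of COL1A1 was tested with limma on log2 CPM differences within libraries, in which scaling factors cancel. In preconditioning+FCCP against FCCP, 9 of the 10 enzymes were higher relative to COL1A1, and in preconditioning+FCCP against preconditioning all 10 were. Since COL1A1 itself had fallen so far, 94.7% and 94.1% of all genes were also higher relative to it in these 2 comparisons, so the counts of enzymes lie near the background. The enzymes' median difference, 1.60 against FCCP and 2.00 against preconditioning, was smaller than that over all genes, 2.71 and 2.60 (log2).

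PLOD2 kept closest to COL1A1 against preconditioning, and PCOLCE and then PLOD2 did so against FCCP. The PLOD2 count was 19.4%, 23.2% and 35.7% of the COL1A1 count in preconditioning+FCCP, 15.0%, 14.2%, 15.2% and 11.8% in preconditioning, 18.8%, 13.6% and 9.95% in FCCP and 19.8%, 15.5% and 14.1% in control. The preconditioning+FCCP libraries overlapped control only through control 1. The PLOD2 difference from COL1A1 was 0.89 ± 0.31 against FCCP (limma adjusted p = 0.0115) and 0.85 ± 0.29 against preconditioning (limma adjusted p = 0.00975). PCOLCE differed from COL1A1 by 0.57 ± 0.37 against FCCP (limma adjusted p = 0.151), the sole enzyme not called there.

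In preconditioning+FCCP PLOD3 moved furthest of the 10 from COL1A1, though its own level was not called in any comparison. Its count was 30.2%, 39.3% and 45.2% of the COL1A1 count in preconditioning+FCCP, 5.50%, 6.09%, 5.09% and 5.35% in preconditioning, 9.67%, 4.50% and 5.10% in FCCP and 4.23%, 3.61% and 10.2% in control. The difference was 2.64 ± 0.37 against FCCP (limma adjusted p = 2.06e-06) and 2.78 ± 0.34 against preconditioning (limma adjusted p = 4.73e-07). Both lay near the medians over all genes, 2.71 and 2.60, so they mainly restate the fall of COL1A1.

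In preconditioning against control PCOLCE alone was called lower relative to COL1A1 (-1.76 ± 0.35, limma adjusted p = 0.0139), where 2.84% of all genes were lower, and the call was lost with the library set as a term and with the replicate block. SERPINH1 differed from COL1A1 by -0.93 ± 0.33 and was not called (limma adjusted p = 0.0958). Its count was 11.0% to 12.9% of the COL1A1 count in preconditioning and 18.5% to 31.5% in control, with no overlap, and it was called with the compared groups alone (limma adjusted p = 0.0329) and when control 3, FCCP 1 and preconditioning+FCCP 3 were omitted (-0.70, limma adjusted p = 0.00132). With those 3 omitted PLOD1 (0.59) and PLOD3 (0.49) were called higher relative to COL1A1. COL1A1 itself was called lower in that fit (-0.36, edgeR adjusted p = 0.034), and neither PLOD1 nor PLOD3 was called on its own level. That fit leaves only higher-share libraries in control and only lower-share libraries in preconditioning, so treatment and library set cannot be told apart there. The share of all genes called relative to COL1A1 in that fit was not counted. In the reported fit, FCCP against control called none of the 10 relative to COL1A1, where 0.173% of all genes were called in either direction.

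**Figure D4:**
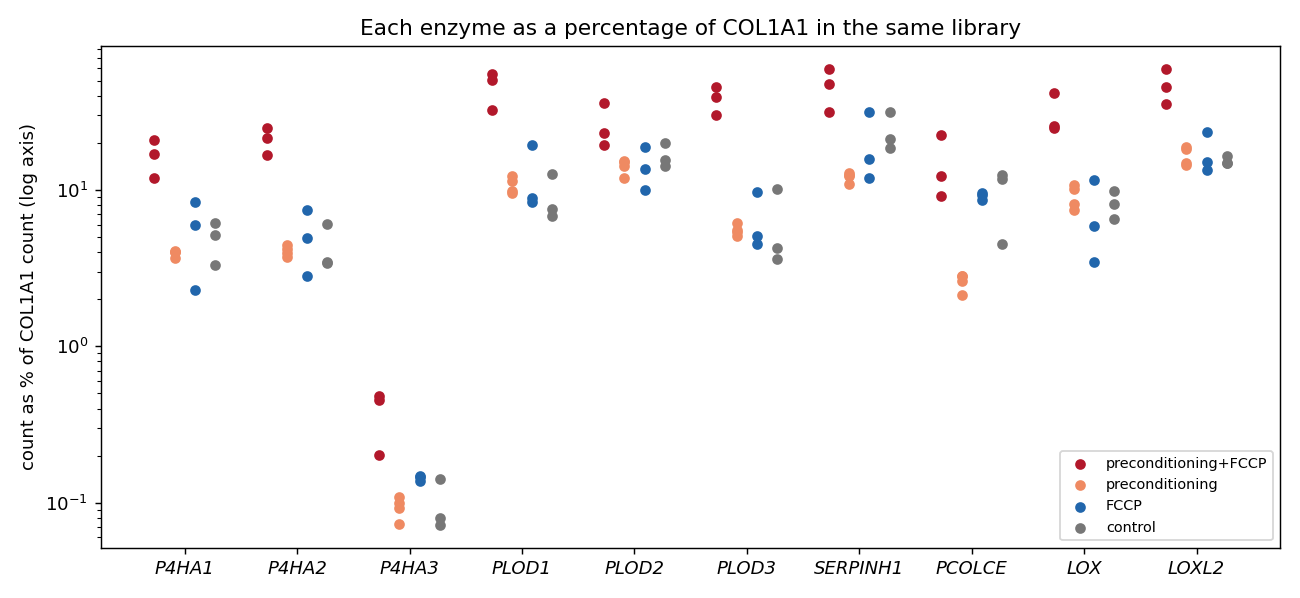
Count of each enzyme as a percentage of the COL1A1 count in the same library (vertical axis, logarithmic), by group. The preconditioning+FCCP points lie above the other groups for PLOD3, with 30.2% to 45.2%, and closer to them for PLOD2, with 19.4% to 35.7%.

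Other genes of collagen synthesis moved in both directions. Of 26 such genes that are not among the 10, 24 were tested, and 14 were lower and 2 higher in preconditioning+FCCP than in FCCP, with a median log2 change of -0.49, where 17.7% of all genes were lower and 17.9% higher. Against preconditioning 10 were lower and 3 higher, with a median of -0.40, where 19.2% of all genes were lower and 20.2% higher. The interaction was lower for 10 and higher for 2, with a median of -0.68, where 9.60% of all genes were lower and 9.38% higher. FCCP against control called none of the 24.

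Among those lower in preconditioning+FCCP were SPARC, a secreted protein that binds collagen, at -1.74 ± 0.25 against FCCP (adjusted p = 0.000305), and the lysyl oxidase-like enzymes LOXL3 and LOXL4. LOXL3 averaged 12.4 ± 0.778 CPM in preconditioning+FCCP (SD, n = 3), 42.9 ± 4.02 CPM in preconditioning (n = 4), 35.2 ± 8.83 CPM in FCCP (n = 3) and 39.3 ± 9.05 CPM in control (n = 3). Its log2 change was -1.51 ± 0.22 against FCCP and -1.79 ± 0.21 against preconditioning. LOXL4 changed by -2.20 ± 0.33 against preconditioning (adjusted p = 0.000178), and the COPII coat gene SEC23A by -0.82 ± 0.16 (adjusted p = 0.000917). P3H3, of the prolyl 3-hydroxylase family, changed by -1.23 ± 0.19 against FCCP (adjusted p = 0.000382).

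TMEM38B and MIA3 rose in the same libraries. TMEM38B, a cation channel of the endoplasmic reticulum, averaged 123 ± 3.69 CPM in preconditioning+FCCP (SD, n = 3), 45.1 ± 1.38 CPM in preconditioning (n = 4), 45.7 ± 6.50 CPM in FCCP (n = 3) and 43.5 ± 9.69 CPM in control (n = 3). Its log2 change was 1.43 ± 0.18 against FCCP and 1.45 ± 0.16 against preconditioning, with an interaction of 1.38 ± 0.24 (adjusted p = 0.00206). MIA3, also called TANGO1, which loads procollagen for export, rose by 0.99 ± 0.21 against FCCP and 0.85 ± 0.19 against preconditioning. COLGALT2, a collagen galactosyltransferase, rose by 1.64 ± 0.63 against preconditioning (adjusted p = 0.0488). It was scarce, with 2.83 ± 1.22 CPM in preconditioning+FCCP (SD, n = 3, 170 reads) and 0.903 ± 0.388 CPM in preconditioning (n = 4, 64 reads).

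In preconditioning against control 4 of the 24 genes were higher and 3 lower, near the background of 10.5% higher and 13.0% lower over all genes. P4HB (given above), COLGALT1, the main collagen galactosyltransferase (0.81 ± 0.20), and SEC23A (0.49 ± 0.15) rose. BMP1, the C-proteinase that PCOLCE enhances (-0.78 ± 0.16), P3H3 (-0.71 ± 0.17) and FKBP10, a prolyl isomerase that assists procollagen folding (-0.63 ± 0.17), fell. Adjusted p-values of these 6 lay between 0.00444 and 0.032.

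The fibrillar collagens fell together in preconditioning+FCCP. Of 7 such genes 6 passed the filter, COL1A1 included. All 6 were lower than in FCCP, with a median log2 change of -2.58, and lower than in preconditioning, with a median of -2.69. Over all genes 17.7% and 19.2% were lower in these comparisons, with medians of 0.0087 and 0.021. In the reported fit none was called in FCCP or in preconditioning against control. Both falls in the median of the fibrillar collagens are larger than those of the 10 enzymes.

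**Figure D5:**
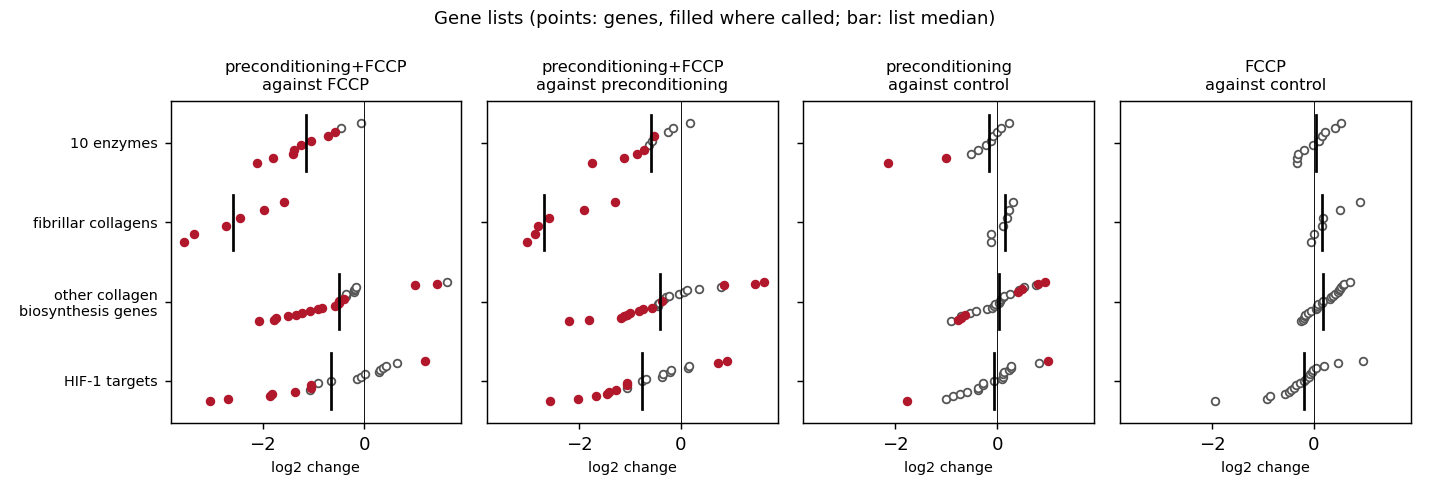
Log2 change (horizontal axis) of every tested gene of 4 lists in 4 comparisons; each point is a gene, filled where edgeR's adjusted p was under 0.05, and the bar is the list's median. In preconditioning+FCCP against FCCP the medians were -1.14 for the 10 enzymes, -2.58 for the fibrillar collagens, -0.49 for the other collagen biosynthesis genes and -0.65 for the HIF-1 targets.

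A list of 20 HIF-1 targets, none of them among the 10 genes, moved in part. Of 19 tested, 7 were lower and 1 higher in preconditioning+FCCP than in FCCP, where 17.7% of all genes were lower and 17.9% higher. Against preconditioning 8 were lower and 2 higher, where 19.2% of all genes were lower and 20.2% higher. The median log2 changes of the list were -0.65 and -0.76, against 0.0087 and 0.021 over all genes. LDHA, the muscle-type subunit of lactate dehydrogenase, averaged 277 ± 114 CPM in preconditioning+FCCP (SD, n = 3), 1640.3 ± 455 CPM in preconditioning (n = 4), 1765 ± 599.7 CPM in FCCP (n = 3) and 1716 ± 788 CPM in control (n = 3). Its log2 change was -2.67 ± 0.40 against FCCP (adjusted p = 0.000376). PGK1, a glycolytic kinase, changed by -1.82 ± 0.32 and CA9, a carbonic anhydrase of the cell surface, by -3.04 ± 0.65 against FCCP, and the carbonic anhydrase CA12 by -1.42 ± 0.23 against preconditioning. EGLN1, an oxygen-sensing prolyl hydroxylase, rose by 1.19 ± 0.34 against FCCP, and KDM3A (0.92 ± 0.33), a histone demethylase, and ANKRD37 (0.72 ± 0.26) rose against preconditioning. In preconditioning against control the glucose transporter gene SLC2A1 was higher (1.00 ± 0.23) and ADM, the adrenomedullin gene, lower (-1.78 ± 0.52).

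For each enzyme the gene with the most similar profile was the one with the highest Pearson r of log2 CPM over the 13 libraries, among 16746 genes. The pairs were P4HA1 with CCL28 (r = 0.928), P4HA2 with SH3D21 (0.884), P4HA3 with APOBEC3G (0.966), PLOD1 with SCARB1 (0.912), PLOD2 with DNAH5 (0.985), PLOD3 with ALG3 (0.929), SERPINH1 with DLG4 (0.926), PCOLCE with BNC2-AS1 (0.988), LOX with CA12 (0.94) and LOXL2 with NDRG3 (0.974). These r describe 13 libraries that share group and library set, and P4HA2 had the least similar partner.

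Marker lists of other cell types differed in how far they moved in preconditioning+FCCP. Of the 10 fibroblast markers, which include 2 fibrillar collagens, 7 were lower and 1 higher in preconditioning+FCCP than in FCCP. Over all genes 17.7% were lower and 17.9% higher. Against preconditioning 9 were lower and 0 higher, where 19.2% of all genes were lower and 20.2% higher. Smooth muscle markers summed to 38.9 to 50.8 CPM in preconditioning+FCCP, 73.2 to 107 CPM in preconditioning, 76.8 to 139 CPM in FCCP and 58.7 to 131 CPM in control. Endothelial markers summed to 2.59 to 4.69 CPM in preconditioning+FCCP, 20.9 to 25.8 CPM in preconditioning, 8.95 to 13.9 CPM in FCCP and 7.29 to 16.3 CPM in control. Of 4 endothelial markers tested, 2 were lower in preconditioning+FCCP than in FCCP and 2 lower than in preconditioning (median log2 change -2.13). Over all genes 17.7% and 19.2% were lower in these comparisons. In preconditioning 2 of the 4 were higher than in control, where 10.5% of all genes were. Immune markers summed to 1.60 to 3.33 CPM in preconditioning+FCCP, 2.10 to 3.22 CPM in preconditioning, 6.39 to 8.84 CPM in FCCP and 1.38 to 5.28 CPM in control, with CD3E at 0 counts in all libraries. The part of cell makeup in the fall of the enzymes was not tested.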

How the data were processed

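Poly-A RNA from AC16 gave 13 libraries, and per the labels' protocols the second strand was made either with or without strand marking. The authors deposited unnormalized counts of reads per gene, for which the submitters' processing notes name HISAT2, HTSeq and hg19. The annotation release and strand setting are not given in the sources, and 5013 of the 63241 IDs are absent from GENCODE 29, whose exon lengths (GRCh38) were used for levels per kb only. Symbols were found for 42338 IDs. Library sizes exclude the entries without a gene, which held 2.13% to 5.20% (no gene), 11.0% to 12.4% (more than 1 gene) and 3.16% to 11.5% (more than 1 alignment) of a library's reads. Genes that share exon bases with a neighbour, PCOLCE (16.6%), PLOD3 (7.56%) and P4HA2 (6.45%) most, have less certain counts.

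Counts were filtered with edgeR's filterByExpr (minimum count 10), scaled with TMM and compared with the quasi-likelihood test (edgeR 4.0.16, R 4.3.3) in 1 fit of 13 libraries with a term per group. Benjamini-Hochberg adjustment ran over 16756 genes, and a gene was called under 0.05. The SE is |log2 change| over the root of F, and 95% intervals are the change ± 1.96 SE. Differences from COL1A1 were tested with limma 3.58.1 on log2 CPM with a prior count of 2. Functions were tested on simulated counts.

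The 10 genes, the lists and the tests were chosen with earlier results of these data known. The text names all 10 genes and COL1A1, up to 3 genes called in each direction per list and comparison with the smallest adjusted p, and the most similar gene of each enzyme. Alternatives were other scalings, no filter, limma-voom, DESeq2 1.42.0, fits of the compared groups only, a replicate block, a term for the library set, fits within a set, each library left out, and 3 libraries left out together. No 2 libraries of a group agreed within sampling noise (lowest chi-square per degree of freedom 3.21). By that measure the 3 libraries left out together, control 3, FCCP 1 and preconditioning+FCCP 3, differed most from the others of their groups.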

Additional observations from a re-analysis of the deposited data

Results flagged for a closer look

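For 4 genes the FCCP effect with preconditioning differed from the FCCP effect without it, by the interaction term of edgeR's quasi-likelihood test. The difference was -0.943 on the log2 scale for PLOD1 (adjusted p = 0.0127), -1.41 for PLOD2 (adjusted p = 0.0141), -1.23 for LOXL2 (adjusted p = 0.00647) and -2.59 for COL1A1 (adjusted p = 0.000575). For PLOD1 the effect of FCCP was -0.53 with preconditioning and 0.41 without. For PLOD2 it was -1.74 with preconditioning and -0.32 without, for LOXL2 -1.12 with and 0.10 without, and for COL1A1 -2.59 with and 0.00 without. In preconditioning, the one group large enough for a check of single libraries (4 libraries), none stood apart for any of the 10 enzymes or COL1A1.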

How the results depend on the processing

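Of 957 alternative log2 values of the 10 enzymes and COL1A1, 838 kept direction and call, 30 lost the call, 20 gained it and 69 changed sign, 1 of these with a call (P4HA1 in preconditioning against control within the lower-share set, 0.72). The cause of a change under an alternative was not tested. For counts relative to COL1A1, the share of all genes called was not counted under any alternative, so those counts have no background here. The replicate numbers did not pair the libraries: over 18 same-numbered pairs the correlation of deviations from group means ran from -0.2 to 0.158. Counts of reads limit only P4HA3.

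When control 3, FCCP 1 and preconditioning+FCCP 3 were omitted at once, 4 enzymes were called in FCCP against control and 4 in preconditioning against control. Relative to COL1A1 these were 2 and 4, with no share over all genes counted. The FCCP and control libraries left in that fit are all of the higher-share set, and the preconditioned ones all of the lower-share set. Its comparisons of preconditioned with other cells therefore cannot tell preconditioning from the library set. All-gene calls were then 3113 for FCCP against control, 8405 for preconditioning against control, 9276 for preconditioning+FCCP against FCCP and 6421 for the interaction. With the library set as a term, 1 enzyme was called in preconditioning against control and 0 relative to COL1A1, and all-gene calls were 938, 459 and 3629 in the first 3 of these comparisons. Within the higher-share set, 0 enzymes and 3 of all genes were called in preconditioning+FCCP against FCCP, and 31 of all genes in FCCP against control.

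With the replicate block, all-gene calls were 53 for FCCP against control, 1840 for preconditioning against control and 1897 for the interaction, and 0 enzymes differed from COL1A1 in preconditioning against control. The replicate block ended the call of P4HA1 in preconditioning+FCCP against FCCP (-0.94) and no other call of an enzyme's own level. Relative to COL1A1 it ended the calls of PCOLCE in preconditioning against control and of PLOD2 in preconditioning+FCCP against preconditioning (0.77, adjusted p = 0.0523). FCCP against control had 590 calls over all genes in the reported fit, 1078 without a filter, 1326 with DESeq2, 382 with limma-voom and 17 with the compared groups alone. With the compared groups alone, 2 enzymes differed from COL1A1 in preconditioning against control, against 1 as reported.

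With each library left out in turn, enzymes called ranged from 0 to 0 in FCCP against control, 2 to 4 in preconditioning against control, 5 to 8 in preconditioning+FCCP against FCCP, 4 to 5 in preconditioning+FCCP against preconditioning and 3 to 4 in the interaction. All-gene calls ranged from 142 (without FCCP 2) to 893 (without FCCP 1), 1506 (without control 1) to 6057 (without control 3), 3848 (without FCCP 3) to 6943, 5027 to 6146 and 2013 (without preconditioning+FCCP 2) to 4576 in these comparisons. Enzymes differing from COL1A1 ranged from 0 to 0, 0 to 1, 8 to 9 and 9 to 10 in the first 4, and the matching ranges over all genes were not counted.

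Library totals alone shifted the all-gene median by 0.112 in preconditioning against control and 0.177 in preconditioning+FCCP against FCCP, and moved the share of calls that were higher to 55.2% and 64.1%, against 44.7% and 50.3% with TMM, and to 58% against 45.4% in FCCP against control.

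Signs turned in the following. In FCCP against control, P4HA1 was 0.0020 with DESeq2 size factors, 0.050 with library totals alone, 0.012 without a filter, 0.0021 with DESeq2, 0.053 with limma-voom, 0.040 with the compared groups alone, 0.0070 with the replicate block and -0.40 to 0.35 with 1 library left out. LOXL2 was -0.032 with the set term, -0.042 within the higher-share set, -0.12 with 3 libraries omitted and -0.11 to 0.23 with 1. PCOLCE was 0.089 with limma-voom and -0.64 to 0.11 with 1 library left out. COL1A1 was -0.063 with the set term, -0.18 within the higher-share set, -0.052 with 3 libraries omitted and -0.25 to 0.17 with 1.

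In preconditioning against control, the set term and the lower-share set gave 0.25 and 0.72 for P4HA1, 0.31 and 0.69 for P4HA3, 0.24 and 0.46 for PLOD2, 0.34 and 0.46 for LOXL2, and 0.084 and 0.47 for COL1A1. Library totals alone gave 0.0037 for P4HA2, 0.022 for PLOD3, 0.12 for LOXL2 and 0.013 for COL1A1. LOXL2 was 0.060 without a filter, 0.017 with limma-voom and 0.040 with the replicate block. With 3 libraries omitted PLOD3 was 0.13 and LOX -0.050. With 1 library left out the ranges were -0.53 to 0.26 for P4HA3, -0.19 to 0.13 for PLOD3, -0.046 to 0.18 for LOX, -0.21 to 0.13 for LOXL2 and -0.36 to 0.042 for COL1A1.

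PLOD3 in preconditioning+FCCP against FCCP was 0.12 with library totals alone, 0.021 within the higher-share set and -0.19 to 0.039 with 1 library left out. Its interaction was -0.013 without a filter, -0.0060 with limma-voom, -0.14 with 3 libraries omitted and -0.21 to 0.11 with 1. The PCOLCE interaction was -0.0046 with library totals alone, -0.29 with limma-voom, -0.26 with the set term, -0.051 with 3 libraries omitted and -0.31 to 0.47 with 1.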
